A study of Mus musculus with 12 samples.

Results

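The 9 genes described here mark Kupffer cells, the macrophages that reside in the liver, or macrophages in general: Csf1r, Adgre1, Cd68, Clec4f, Marco, Cd163, Vsig4, Timd4 and Cd5l. They were chosen by name, and all 12 probe sets that the platform's annotation gives to these symbols were taken, of 34945 probe sets with 1 symbol. Csf1r has 3 of them, Marco has 2 and the other 7 genes have 1 each. All 12 probe sets passed a filter that left out the dimmest 30% of probe sets, so all 9 genes were among the 14568 genes tested.

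RNA from whole mouse liver was measured on 12 Affymetrix arrays, 3 in each of 4 groups, and the labels call the 3 samples of a group biological replicates. The groups were Ire1α null livers with tunicamycin, Ire1α null livers with vehicle, control livers with tunicamycin and control livers with vehicle. All mice were of the C57Bl/6J background and 3 months old. Tunicamycin, a drug that blocks N-linked glycosylation in the endoplasmic reticulum (ER), was injected into the peritoneum at 2 µg per gram of body weight. The vehicle mice received dextrose, and all livers were taken 8 hours after the injection. Ire1α, encoded by Ern1, is a sensor of ER stress, and the null mice are described as conditional. The titles read Fe-CRE+ for the null and Fe+CRE+ for the control livers. They do not spell out the Fe part or how many intact copies of Ern1 the controls carry. Both titles hold CRE+, so the controls carry the recombinase too. The sources used here do not give the promoter that drives it or the deleted part of Ern1, nor whether the macrophages themselves lost Ire1α.

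Kupffer cells line the liver sinusoids, where they take up bacteria, dying cells and aged red blood cells from the blood. They depend on signalling through the CSF1 receptor, and in mice their surface receptors include CLEC4F, VSIG4 and TIM4 (the product of Timd4). Hepatocytes make up most of the liver's mass, so in bulk RNA these markers are transcripts of a minority of cells, and fewer macrophages and less RNA per macrophage cannot be told apart.

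The sequences just before the start of these genes are shown because the transcription factor PU.1 is a known regulator of macrophage genes, and XBP1 is the factor that Ire1α activates by splicing its mRNA. The RefSeq promoter table (build GRCm38.p6) held 7 of the 9 genes and not Adgre1 and Csf1r. The 250 bases before each gene's start were searched on both strands for GAGGAA, a core of PU.1 sites, and for TGACGT and CCACG, parts of the elements linked to XBP1 and ER stress. No matches in these windows overlapped each other. The windows of the 3 receptor genes Timd4 (chr11:46810549-46810798, plus strand), Vsig4 (chrX:96293439-96293688, minus strand) and Marco (chr1:120505025-120505274, minus strand) read 5′ to 3′ on the gene's strand, with capitals marking GAGGAA on either strand:
Timd4: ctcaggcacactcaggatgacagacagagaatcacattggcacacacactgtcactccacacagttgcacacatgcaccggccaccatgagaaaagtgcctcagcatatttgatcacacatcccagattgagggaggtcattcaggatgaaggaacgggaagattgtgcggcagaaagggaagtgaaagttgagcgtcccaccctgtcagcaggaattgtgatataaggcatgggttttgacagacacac
Vsig4: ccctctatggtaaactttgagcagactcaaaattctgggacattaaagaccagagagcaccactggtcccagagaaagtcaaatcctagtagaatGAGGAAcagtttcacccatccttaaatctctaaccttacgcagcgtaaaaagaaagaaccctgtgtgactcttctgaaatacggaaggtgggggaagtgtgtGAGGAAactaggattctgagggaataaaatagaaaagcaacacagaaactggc
Marco: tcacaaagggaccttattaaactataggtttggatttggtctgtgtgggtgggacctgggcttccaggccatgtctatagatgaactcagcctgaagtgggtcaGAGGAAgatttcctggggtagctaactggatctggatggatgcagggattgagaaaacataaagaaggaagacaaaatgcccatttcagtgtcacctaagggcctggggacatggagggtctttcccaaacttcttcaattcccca

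Vsig4 held GAGGAA at -155 and -53 relative to its start, and Marco held it at -146. The Timd4 window held none of the 3 motifs. Over all 7 windows, GAGGAA was found in 4 (Cd68, Marco, Vsig4 and Cd5l). Of all 32851 windows in the table, 23.3% held GAGGAA, so the letter string is common. TGACGT was found in 1 window, that of Cd68, and in 6.47% of all windows. CCACG was found in 0 of the 7 windows and in 28.3% of all windows. These matches describe letters and do not show that a factor binds there.

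The arrays differed in ways that bear on the markers. Null tunicamycin replicate 2 carried kidney transcripts: Umod, a protein of the kidney tubule, stood at 13.14 on the log2 scale there and at no more than 6.55 on the other 11 arrays. The 5′ to 3′ signal ratio of the actin control probe sets, a measure of RNA integrity, was 0.205 to 0.434 in null tunicamycin and 0.296 to 0.633 in null vehicle livers. It was 0.295 to 0.389 in control tunicamycin livers and 0.454 to 1.10 in control vehicle livers. Ern1 did not separate the genotypes, with null minus control differences of 0.10 ± 0.24 with tunicamycin and -0.13 ± 0.24 with vehicle (log2, SE), and without the deleted part this does not check the labels. Levels below are log2(intensity + 16) after quantile normalization, with replicates 1, 2 and 3 in that order, and a gene is said to rise or fall only at a Benjamini-Hochberg adjusted p under 0.05 in limma over all 14568 genes. With 3 arrays a group, their number limits the precision.

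Csf1r encodes the receptor for CSF1 and IL-34, on which macrophage survival depends. Its brightest probe set stood at 10.19, 10.77 and 10.91 in null tunicamycin livers, against 11.51, 11.12 and 11.07 in null vehicle livers. In control livers it stood at 11.09, 10.58 and 10.48 with tunicamycin, against 11.46, 11.40 and 11.17 with vehicle. Within each genotype all 3 tunicamycin arrays lay below all 3 vehicle arrays. The differences were -0.61 ± 0.22 in null and -0.63 ± 0.22 in control livers (log2, SE), with limma adjusted p of 0.0839 and 0.0582. The other 2 Csf1r probe sets gave tunicamycin minus vehicle differences of -0.41 ± 0.28 and -0.42 ± 0.27 in null livers, and -0.37 ± 0.28 and -0.48 ± 0.27 in control livers, with overlapping arrays. Their null minus control differences were -0.56 ± 0.28 and -0.38 ± 0.27 with tunicamycin, and -0.52 ± 0.28 and -0.44 ± 0.27 with vehicle. The brightest probe set gave -0.09 ± 0.22 with tunicamycin and -0.11 ± 0.22 with vehicle. No Csf1r probe set passed between genotypes, and all had overlapping arrays there.

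Adgre1 encodes an adhesion receptor whose protein is a standard antibody marker of mouse macrophages. As deposited, its intensity was 379, 414 and 620 in null tunicamycin livers, against 835, 628 and 629 in null vehicle livers. Control livers gave 716, 539 and 485 with tunicamycin, against 1038, 775 and 726 with vehicle. Every tunicamycin array of a genotype was below every vehicle array of that genotype. On the normalized log2 scale the null arrays stood at 8.42, 8.90 and 9.07 with tunicamycin, against 9.95, 9.38 and 9.48 with vehicle. The control arrays stood at 9.30, 9.01 and 8.93 with tunicamycin, against 10.03, 9.73 and 9.72 with vehicle.

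Cd68 encodes macrosialin, a glycoprotein of macrophage lysosomes. It stood at 6.34, 6.12 and 6.86 in null tunicamycin livers, against 6.58, 6.97 and 6.44 in null vehicle livers. Its control values were 7.13, 7.21 and 6.79 with tunicamycin, against 7.66, 6.69 and 6.99 with vehicle. The treatments overlapped in both genotypes, and the differences of -0.23 ± 0.26 in null and -0.07 ± 0.26 in control livers (log2, SE) were no larger than their errors.

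Clec4f encodes a C-type lectin that in mice is largely restricted to Kupffer cells. It stood at 9.09, 9.28 and 10.35 in null tunicamycin livers, against 10.06, 10.42 and 9.82 in null vehicle livers. Control livers had 10.21, 10.21 and 10.28 with tunicamycin, against 10.78, 10.32 and 10.34 with vehicle. The null tunicamycin group was spread over more than a log2 unit, with an SD of 0.68, and its replicate 3 lay among the vehicle arrays while the other 2 lay below them. In control livers all 3 tunicamycin arrays were below the vehicle arrays, by a small margin (-0.24 ± 0.28, log2, SE).

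Marco encodes a scavenger receptor that binds bacteria. Its brightest probe set stood at 7.06, 7.29 and 6.61 in null tunicamycin livers, against 7.25, 7.59 and 7.62 in null vehicle livers. It stood at 7.05, 8.89 and 6.94 in control tunicamycin livers, against 7.80, 8.06 and 9.09 in control vehicle livers. Control tunicamycin replicate 2 and control vehicle replicate 3 stood high. The second probe set did not show them as high: it gave 5.96, 6.07 and 5.69 in control tunicamycin livers, against 6.42, 6.04 and 6.35 in control vehicle livers. In null livers it gave 5.60, 5.43 and 5.55 with tunicamycin, against 5.91, 6.22 and 6.02 with vehicle, without overlap (-0.52 ± 0.16, log2, SE, limma adjusted p = 0.0635 in a fit of every probe set).

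Cd163 encodes the receptor that clears complexes of haemoglobin and haptoglobin. It stood at 8.29, 8.94 and 9.83 in null tunicamycin livers, against 9.90, 9.61 and 9.50 in null vehicle livers. Its control arrays gave 10.08, 10.00 and 9.48 with tunicamycin, against 9.50, 9.79 and 9.03 with vehicle. The sign of the difference thus differed between genotypes: it was -0.65 ± 0.33 in null and 0.41 ± 0.33 in control livers (log2, SE), each with overlapping arrays and neither past the threshold.

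Vsig4 encodes a complement receptor for C3b and iC3b through which Kupffer cells capture bacteria. It stood at 8.43, 8.75 and 9.72 in null tunicamycin livers, against 9.76, 10.32 and 9.49 in null vehicle livers. Control livers gave 10.07, 9.72 and 9.31 with tunicamycin, against 10.87, 10.06 and 10.26 with vehicle. The treatments overlapped by 1 pair of arrays in each genotype. Null tunicamycin replicate 3 (9.72) lay above null vehicle replicate 3 (9.49), and control tunicamycin replicate 1 (10.07) above control vehicle replicate 2 (10.06). The differences were -0.89 ± 0.34 in null and -0.70 ± 0.34 in control livers (log2, SE), with limma adjusted p of 0.102 and 0.163.

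Timd4 encodes TIM4, a receptor for phosphatidylserine on dying cells that marks resident rather than newly recruited Kupffer cells. As deposited, its intensity was lowest on a null tunicamycin array, at 78, and highest on a control vehicle array, at 285. On the log2 scale it stood at 6.53, 6.58 and 7.16 in null tunicamycin livers, against 7.88, 7.49 and 7.68 in null vehicle livers. Control livers had 7.83, 7.49 and 7.09 with tunicamycin, against 8.19, 8.08 and 7.69 with vehicle. The null groups did not overlap and the control groups did.

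Cd5l encodes a secreted protein of macrophages that is also called AIM. It stood at 10.23, 10.82 and 11.48 in null tunicamycin livers, against 11.43, 11.51 and 10.20 in null vehicle livers. Control livers had 11.68, 11.63 and 11.45 with tunicamycin, against 11.99, 11.54 and 10.34 with vehicle. Replicate 3 of each vehicle group stood over a log2 unit below the other 2 arrays of its group, and the treatment differences were smaller than their errors.

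**Figure D1:**
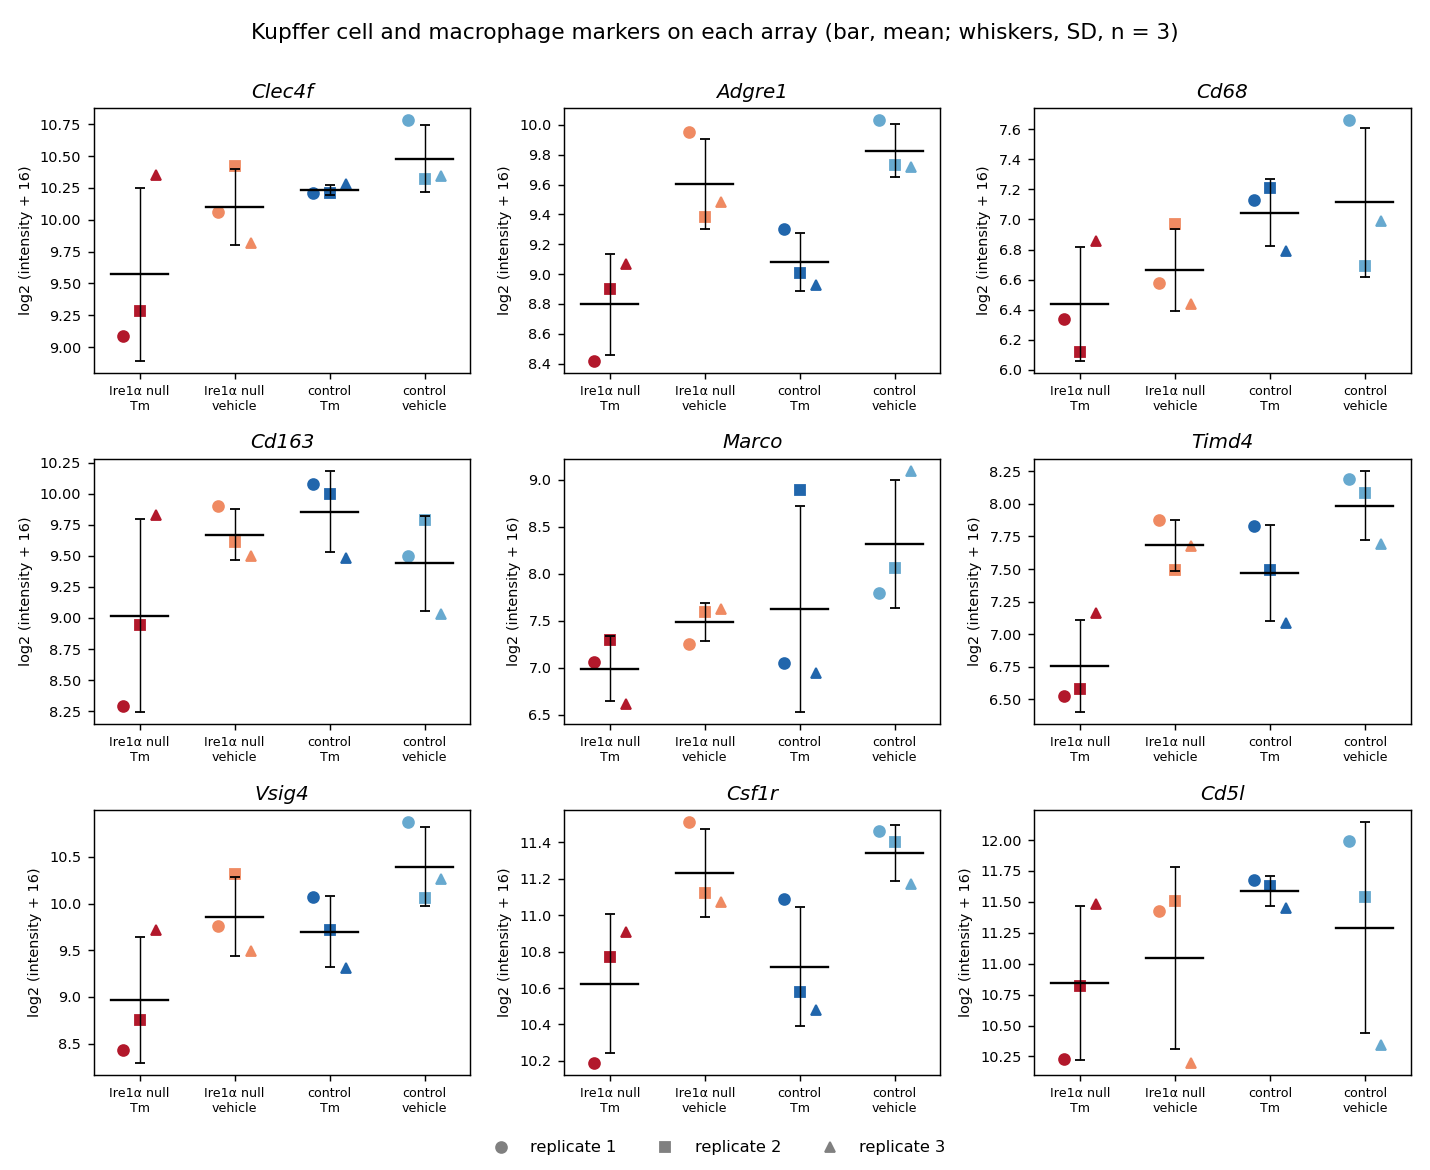
Level of each of the 9 markers, as log2(intensity + 16) after quantile normalization, on each of the 12 arrays, by group (Tm, tunicamycin). Points are arrays, with the shape giving the replicate number, bars are means and whiskers are SD (n = 3). The null tunicamycin group has the lowest mean in all 9 panels, and its replicate 3 is its highest array in 8 of them.

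The mean of the null tunicamycin group was the lowest of the 4 groups for 9 of 9 genes. The control vehicle group had the highest mean for 7 of 9, and the control tunicamycin group for Cd163 and Cd5l. Most steps in these orders lay within the spread of the arrays. Of 27 pairs of groups next to each other in a gene's order, 2 did not overlap: control tunicamycin below control vehicle for Clec4f (means 10.23 and 10.48), and control tunicamycin below null vehicle for Adgre1 (means 9.08 and 9.60). These orders and overlaps were counted for the markers alone and not over all genes, so they do not show whether the markers stand apart.

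Tunicamycin against vehicle in null livers asked whether ER stress moved the markers in livers labelled Ire1α null. Adgre1 and Timd4 fell. Adgre1 was at 0.572 times its vehicle level (-0.81 ± 0.21, log2, SE, limma adjusted p = 0.0195) and Timd4 at 0.526 times (-0.93 ± 0.23, limma adjusted p = 0.0165). The other 7 genes had differences of -0.89 to -0.20 and did not pass. Thus 2 of 9 markers fell and 0 rose, while 9.23% of all genes tested fell and 7.59% rose in this comparison. All 9 differences were below 0, as were those of 56.8% of all genes, and their median was -0.61 against -0.07 over all genes. Without null tunicamycin replicate 1 the median was -0.39 with 8 of 9 below 0, without replicate 3 it was -0.92, and on the values as deposited it was -0.39 with 8 below 0, against 0.08 over all genes. Adgre1, Timd4 and Csf1r had all 3 tunicamycin arrays below all 3 vehicle arrays, as had 19.4% of all genes.

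Both calls depended on the scaling and on single arrays. With array medians centred in place of quantile normalization, which moved the median of all genes to 0.01, the differences were -0.64 for Adgre1 (limma adjusted p = 0.0641) and -0.78 for Timd4 (0.0714). Over all 16 alternatives and left-out arrays, Adgre1 gave adjusted p of 0.0143 to 0.119 and Timd4 of 0.0104 to 0.123, and each was called in 12. Without null tunicamycin replicate 1, 0 of 9 markers passed (Adgre1 -0.62, limma adjusted p = 0.0699; Timd4 -0.81, 0.0581), and likewise without null vehicle replicate 1 (-0.63, 0.0807; -0.83, 0.0669). Without replicate 2 of the null tunicamycin arrays, which carried the kidney transcripts, the same 2 genes fell and the median of the markers was -0.65.

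Null tunicamycin replicate 3 had the opposite influence. Without it 5 of 9 markers fell in null livers, while 11% of all genes were called in either direction. They were Adgre1 (-0.94), Timd4 (-1.13), Clec4f (-0.92), Cd163 (-1.05) and Vsig4 (-1.27), with limma adjusted p of 0.0104 to 0.0333. Over all 16 alternatives, adjusted p ranged over 0.0166 to 0.608 for Clec4f, 0.0333 to 0.597 for Cd163 and 0.0239 to 0.309 for Vsig4. This array was left out only to measure its weight, and no label sets it apart.

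In control livers tunicamycin against vehicle gave 1 called marker. Adgre1 fell to 0.596 times its vehicle level (-0.75 ± 0.21, log2, SE, limma adjusted p = 0.0196). Of 9 markers 1 fell and 0 rose, while 13.3% of all genes fell and 11.6% rose. The differences of the other 8 genes were -0.70 to 0.41, with Cd163 and Cd5l (0.30 ± 0.45) above 0. Below 0 were 7 of 9 differences, against 59.4% over all genes, and the median was -0.51 against -0.11 over all genes. The median was -0.31 without control vehicle replicate 3 (8 below 0) and -0.33 without control tunicamycin replicate 3 (6 below 0). Clec4f, Adgre1 and Csf1r had tunicamycin arrays all below the vehicle arrays, as had 24.5% of all genes.

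The call of Adgre1 in control livers was lost with array medians centred (-0.56, limma adjusted p = 0.0811), where the median of all genes was -0.01, and on the values as deposited (-0.53, 0.119). It was also lost without control tunicamycin replicate 2 (-0.71, 0.0662), without control tunicamycin replicate 3 (-0.67, 0.0677) and without control vehicle replicate 1 (-0.64, 0.0665), with limma adjusted p of 0.014 to 0.119 over all 16 settings. The actin ratio moved with treatment in control livers, at 0.295 to 0.389 with tunicamycin and 0.454 to 1.10 with vehicle, while the Gapdh 5′ to 3′ ratio overlapped (0.523 to 0.577 with tunicamycin and 0.352 to 0.774 with vehicle). Adjusted for that ratio, Adgre1 gave -0.84 (adjusted p = 0.0914). Without control tunicamycin replicate 2, where the brightest Marco probe set was high, Marco passed (-1.32, limma adjusted p = 0.0205). Since that array held the high value, a lower difference without it was fixed in advance. It was the only 1 of 16 settings to call Marco, with differences of -1.32 to -0.09 and adjusted p of 0.0205 to 0.945. The second Marco probe set gave -0.37 ± 0.16 with all arrays (limma adjusted p = 0.157 in a fit of every probe set).

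**Figure D2:**
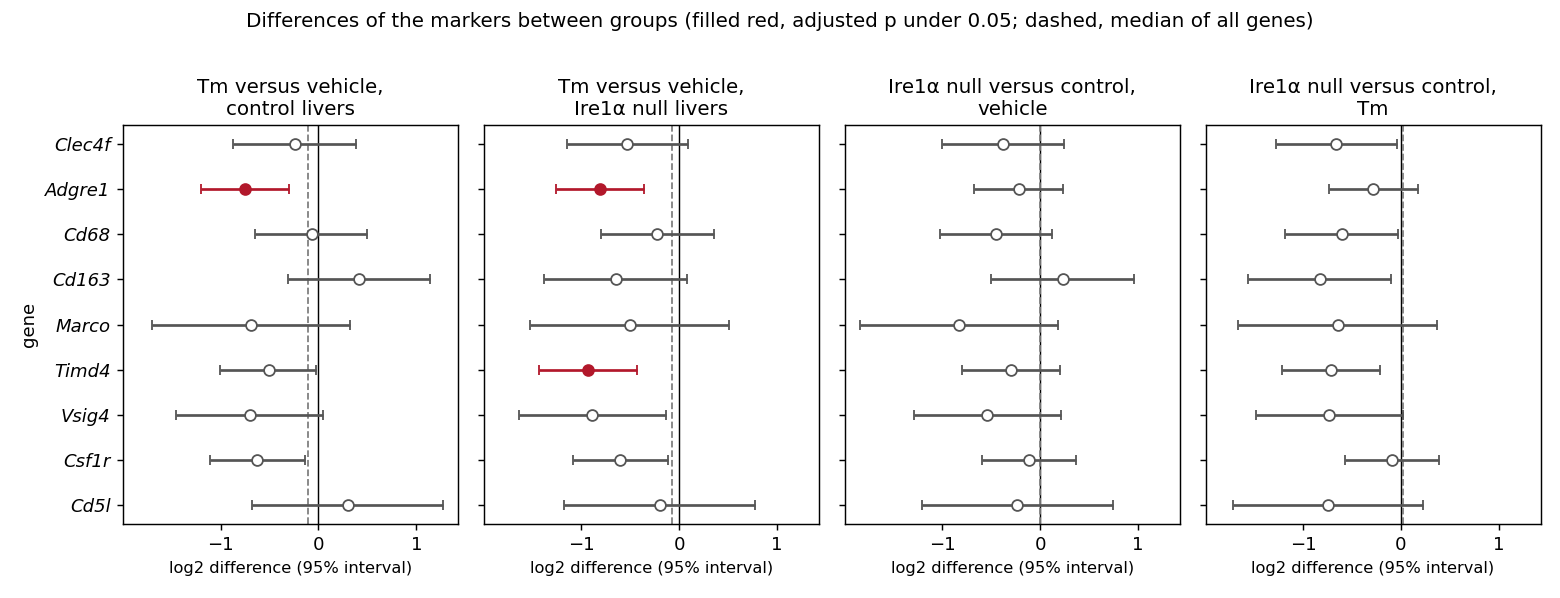
Log2 difference of each marker with its 95% interval in tunicamycin (Tm) against vehicle for both genotypes and in null against control for both treatments. Filled red points passed the threshold, which were Adgre1 in both tunicamycin comparisons and Timd4 in null livers, and the dashed line is the median of all genes.

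Null against control livers with tunicamycin asked whether the genotypes differed under ER stress. Of 9 markers 0 passed, while 3.23% of all genes were lower in null livers and 3.99% differed in either direction. Differences were below 0 for 9 of 9 markers, against 47.2% of all genes, with a median of -0.66 against 0.02. The differences were -0.83 ± 0.33 for Cd163, -0.74 ± 0.45 for Cd5l, -0.73 ± 0.34 for Vsig4, -0.71 ± 0.23 for Timd4 and -0.66 ± 0.28 for Clec4f (log2, SE). Timd4 had the smallest limma adjusted p, 0.132. At an unadjusted p under 0.05 limma gave 4 markers lower (Clec4f, Cd68, Cd163 and Timd4), and 8.39% of all genes. By their brightest probe sets, the arrays of the genotypes separated for 0 of 9 markers, against 11.5% of all genes lower without overlap. The second Marco probe set did separate, with all null arrays below all control arrays (-0.38 ± 0.16, limma adjusted p = 0.365 in a fit of every probe set). Without null tunicamycin replicate 3, Clec4f (-1.05, limma adjusted p = 0.0194, 0.0194 to 0.596 over all settings) and Cd163 (-1.24, 0.0367, 0.0367 to 0.562) passed, with a median of -0.91. Without null tunicamycin replicate 1 the differences were smaller, at -0.42 for Clec4f, -0.47 for Cd163, -0.46 for Vsig4 and -0.43 for Cd5l, with a median of -0.46 and 8 of 9 below 0. Without control tunicamycin replicate 1, 8 of 9 were below 0 as well.

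With vehicle, the null and control livers gave 0 called markers and 0 called genes of 14568 in limma. At an unadjusted p under 0.05 there were 0 markers and 4.1% of all genes. Marker differences were -0.83 ± 0.46 for Marco to 0.23 ± 0.33 for Cd163 (log2, SE), with a median of -0.30 against 0.00 over all genes. Below 0 were 8 of 9, against 50.3% of all genes. The median was -0.18 without control vehicle replicate 1 (7 below 0) and -0.47 without null vehicle replicate 2. Marco had all null arrays below all control arrays, as had 4.41% of all genes, and its second probe set overlapped (-0.22 ± 0.16).

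The response to tunicamycin did not pass the test of a difference between genotypes for any of the 9 markers, with limma adjusted p of 0.575 to 1, while 0.837% of all genes passed. The interaction was -1.06 ± 0.47 for Cd163 (log2, SE, unadjusted p = 0.0439, limma adjusted p = 0.575), the only marker at an unadjusted p under 0.05, where 8.26% of all genes were. For Adgre1 it was -0.06 ± 0.29. For Timd4, called in null and not in control livers, it was -0.41 ± 0.32, so a difference between the genotypes in its response was not shown. The 5 comparisons share arrays, since each group enters more than 1 of them, so their values are not independent of each other.

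Arrays of a group differed for many markers at once. Replicate 3 of the null tunicamycin arrays was the highest of its group for 8 of 9 markers, and for 26% of all genes, while replicate 1 was the lowest for 7 of 9, and for 26.5% of all genes. Replicate 3 of the control tunicamycin arrays was the lowest for 8 of 9 (34.2% of all genes), and replicate 1 of the control vehicle arrays was the highest for 7 of 9 (31.1%). Among the deviations from group means over the 12 arrays, the 28 pairs of markers without Marco had Pearson r of 0.27 to 0.93, with a median of 0.66. Adgre1 and Csf1r gave 0.93. The 8 pairs with Marco had r of -0.43 to -0.09, a split that was made after its values had been seen. Marco was read there by its brightest probe set, whose high arrays its second probe set did not show as high. The r of the second probe set were not computed, so the split describes 1 probe set and not the gene. All pairs share the same 12 arrays and their quality, and these r are descriptions.

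**Figure D3:**
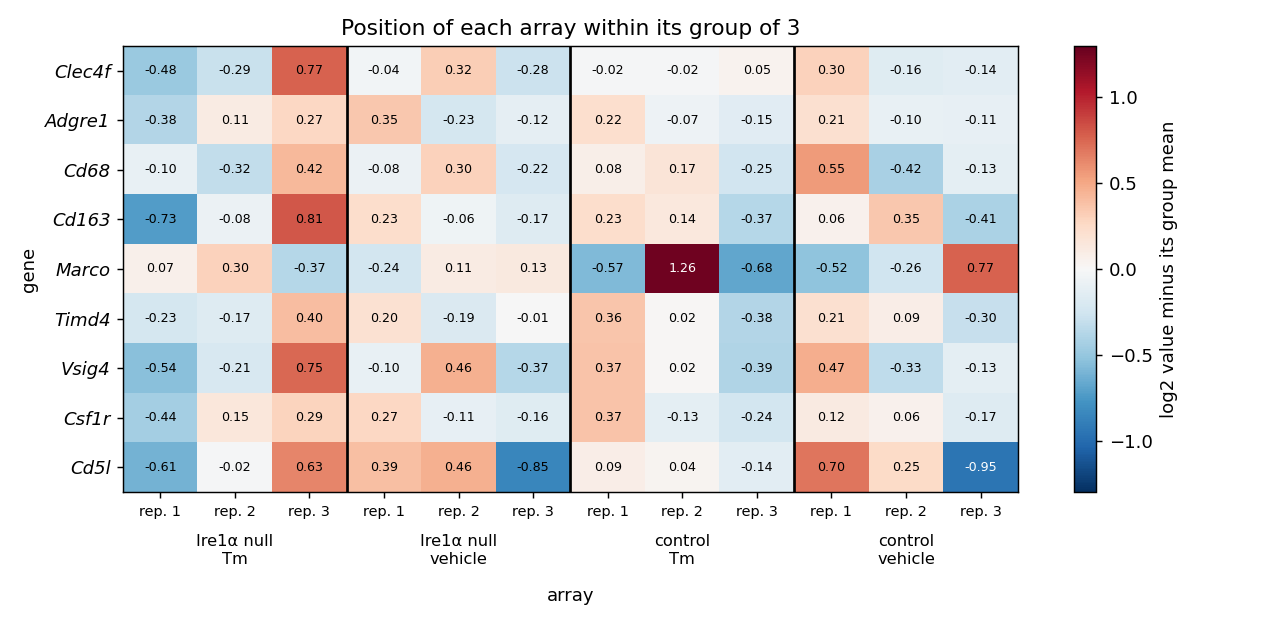
Log2 value of each marker on each array minus the mean of its group of 3 arrays. Red is above and blue below the group mean. Replicate 3 of the null tunicamycin arrays is above its group mean for 8 of 9 markers, and the brightest Marco probe set goes the other way there. The second Marco probe set, not drawn, stood at 5.55 on that array, against a group mean of 5.53.

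Endothelial genes stood high and low on some of the same arrays. The mean of 12 endothelial genes, each centred over the 12 arrays, was -0.44, -0.35 and 0.27 in null tunicamycin livers, against -0.38, 0.17 and 0.10 in null vehicle livers. It was 0.25, 0.30 and -0.35 in control tunicamycin livers, against 0.57, 0.02 and -0.17 in control vehicle livers. So null tunicamycin replicate 3, control vehicle replicate 1 and control tunicamycin replicate 3 stood to their groups as they did for the markers. The same mean over the 9 markers was -0.90, -0.58 and -0.08 in null tunicamycin livers, against 0.18, 0.19 and -0.16 in null vehicle livers. In control livers it was 0.19, 0.22 and -0.22 with tunicamycin, against 0.62, 0.33 and 0.21 with vehicle. Limma called 0 of the 12 endothelial genes in either tunicamycin comparison. At an unadjusted p under 0.05 there were 0, against 4356 of all 14568 genes in null and 5352 in control livers. Their median was -0.21 in null and -0.09 in control livers, against -0.07 and -0.11 over all genes. Not every cell type did so: the mean of 12 stellate genes was 0.29, -0.07 and -0.20 in null tunicamycin livers, with replicate 3 lowest, and the mean of 7 lymphocyte genes was -0.15, -0.02 and -0.16. The mean of 8 hepatocyte genes stayed between -0.05 and 0.10 on all 12 arrays. Most of these hepatocyte genes were very bright, with group means of 13.66 to 13.82 for Alb, and whether signal that bright could vary freely was not tested. The part that the share of non-hepatocyte cells in each piece of liver plays in the marker values was not tested.

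Of 12 further genes of Kupffer cells, all tested, 1 rose and 1 fell with tunicamycin in each genotype. Of all genes, 7.59% rose and 9.23% fell in null livers, and 11.6% rose and 13.3% fell in control livers. Id3, a regulator of transcription on which Kupffer cell identity depends in mice and which other liver cells express too, rose by 2.71 ± 0.31 in null livers (log2, SE, limma adjusted p = 0.000148) and by 2.64 ± 0.31 in control livers (8.53e-05). Slc40a1 encodes ferroportin, the iron exporter of macrophages and other cells. It fell, with differences of -0.96 ± 0.16 in null livers (limma adjusted p = 0.0015) and -1.38 ± 0.16 in control livers (5.98e-05). Both genes kept these calls in all 16 other settings. The median of the list was -0.39 in null and -0.26 in control livers, against -0.07 and -0.11 over all genes.

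Among 18 of 20 genes common to macrophages that could be tested, Mpeg1, which encodes the pore-forming protein perforin-2, fell in both genotypes (-0.92 ± 0.18 in null livers, limma adjusted p = 0.00485, and -0.99 ± 0.18 in control livers, 0.0017). The call in control livers was lost after adjustment for the actin ratio (-0.82, 0.0534), the only one of 16 settings to lose it. Aif1, which encodes the actin-binding protein IBA1, fell in control livers (-1.10 ± 0.25, limma adjusted p = 0.00724). In null livers Aif1 gave -0.35 ± 0.25, and the interaction was 0.75 ± 0.36 (limma adjusted p = 0.631). Fcgr1, the high-affinity receptor for IgG, rose in control livers (0.61 ± 0.20, limma adjusted p = 0.0412), a call held in 8 of 16 other settings, with adjusted p of 0.0193 to 0.357. In null livers Fcgr1 gave 0.60 ± 0.20 (limma adjusted p = 0.0591), with all tunicamycin arrays above the vehicle arrays and an interaction of -0.01 ± 0.28. Thus 1 gene fell and 0 rose in null livers, where 9.23% of all genes fell and 7.59% rose. In control livers 2 fell and 1 rose, where 13.3% of all genes fell and 11.6% rose. The medians were -0.27 in null and -0.37 in control livers, against -0.07 and -0.11 over all genes.

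Signals that the Kupffer cell niche is known to provide were tested for 7 of 8 genes. Dll1, a Notch ligand, fell in both genotypes (-1.33 ± 0.20 in null livers, limma adjusted p = 0.00102, and -1.37 ± 0.20 in control livers, 0.000414), in every setting run. Dll4, the Notch ligand of sinusoidal endothelium, fell in null livers (-0.84 ± 0.20, limma adjusted p = 0.0131), and 14 of 15 settings kept the call. The mean of its probe sets gave -0.32 there (limma adjusted p = 0.202). Dll4 was dim in null livers, with group means of 4.89 with tunicamycin and 5.73 with vehicle. Whether signal that dim follows the level of Dll4 was not tested. In control livers Dll4 gave -0.35 ± 0.20, and the interaction was -0.49 ± 0.28 (limma adjusted p = 0.736). Csf1, the ligand of the Csf1r product, gave -0.50 ± 0.17 in null and -0.48 ± 0.17 in control livers and did not pass. Of the 7 niche genes, 2 fell in null and 1 in control livers, while 9.23% and 13.3% of all genes fell. Of 22 genes of recruited or inflammatory macrophages, 15 were tested. Limma called 0 of them in either genotype. At an unadjusted p under 0.05 there were 1 in null and 0 in control livers, against 4356 and 5352 of all 14568 genes. The medians were -0.06 and -0.07, against -0.07 and -0.11 over all genes. Some of these genes were dim, with group means of 4.86 to 5.12 for Il10 and 4.96 to 5.10 for Cxcl2, where a change is hard to see. In null against control livers 0 genes of any of these lists passed in limma with either treatment, and at most 1 gene of a list reached an unadjusted p under 0.05.

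**Figure D4:**
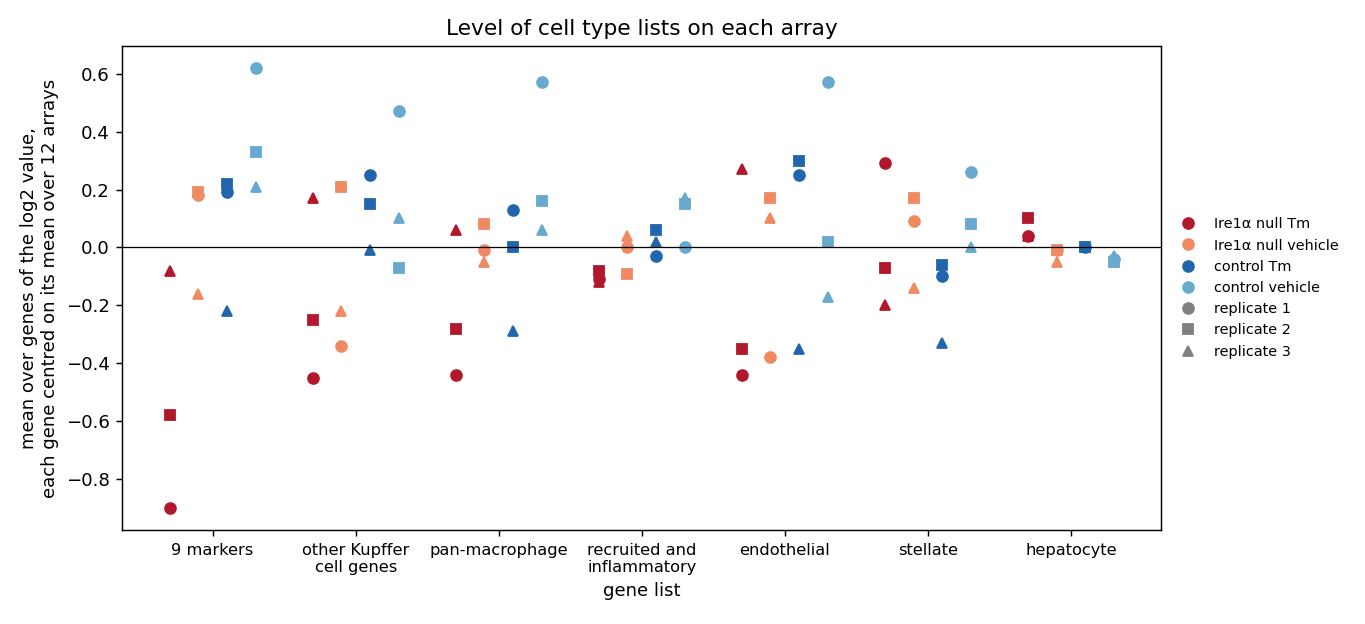
Mean over the genes of each list of the log2 value, each gene centred on its mean over the 12 arrays, for each array. Colours give the group and shapes the replicate. The 9 markers run between -0.90 and 0.62, the hepatocyte genes between -0.05 and 0.10, and the endothelial genes between -0.44 and 0.57.

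The genes whose levels followed the markers most closely were named by their Pearson r over the 12 arrays, with no member among them. For the mean of the 9 markers they were Tyrobp (0.948), Pilrb1 (0.933), Cd53 (0.925), Wfdc17 (0.919) and Pilra (0.916), where 0.73 is the 99th percentile of r over all genes. For Clec4f alone they were C1qc (0.910), Slc11a1 (0.899), Gngt2 (0.898), Lyz1 (0.895) and C1qb (0.891), with a 99th percentile of 0.69. Tyrobp encodes a signalling adaptor of myeloid cells, C1qb and C1qc encode chains of complement C1q, and Slc11a1 encodes a metal transporter of macrophage phagosomes. Probes for Lyz1 and for Pilra and Pilrb1 can share signal with close relatives. On deviations from group means, Adgre5 (0.940) and Tyrobp (0.916) were nearest to the mean of the markers, followed by Pex10, Gngt2 and Slc43a3. For Clec4f the nearest by deviations were 1700017B05Rik (0.930), Pde2a (0.929), Tmem147 (0.914), Apoa1 and Pphln1, of which Apoa1 is a hepatocyte gene. All these r rest on the same 12 arrays, share their group differences or their quality, and come from a search over all genes.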

How the data were processed

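The authors deposited a linear intensity for each probe set of 12 liver arrays. RNA was extracted with Trizol and labelled with biotin, per the labels' protocols. The sources used here do not say how the probes were summarised and scaled. Probe sets were named from the platform's annotation. Control probe sets (64 of 45101) were left out, and log2(intensity + 16) was quantile normalized in limma 3.58.1 (R 4.3.3). The dimmest 30% of probe sets were dropped and each gene was represented by its brightest probe set, which left 14568 genes.

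A model of the 4 group means (lmFit, eBayes) took in the 12 arrays with 8 residual degrees of freedom and gave 5 contrasts, after a check on simulated data. Calls were made where the Benjamini-Hochberg adjusted p was under 0.05. A second fit held every probe set. Replicate numbers were not used as pairs.

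All members are named. From the lists of other Kupffer cell, macrophage, niche and inflammatory genes up to 4 called genes were named, with the 5 genes most like Clec4f and the member mean. The other cell type lists used here were endothelial, hepatocyte, lymphocyte, stellate, erythroid, neutrophil, bile duct and kidney genes. Members and lists were chosen with earlier results of these data known. Alternatives were other pseudocounts, filters, scalings, probe set rules, eBayes options, a replicate block, the actin ratio as a covariate (added after seeing the data) and each array left out. Figures used matplotlib 3.10.9 in Python 3.11.15.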

Additional observations from a re-analysis of the deposited data

How the results depend on the processing

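With 3 arrays a group, most marker differences were close to their errors, and single arrays decided several calls. Leaving out 1 array at a time gave 0 to 5 markers called for tunicamycin against vehicle in null livers, 0 to 2 in control livers, 0 to 2 for null against control with tunicamycin, and 0 to 0 for null against control with vehicle and for the interaction. In control livers the called markers numbered 2 (Adgre1 and Csf1r) with a pseudocount of 64, with a 50% filter and with eBayes trend and robust, and 0 with array medians centred, with the values as deposited and with the actin covariate. In null livers they numbered 0 with array medians centred and 0 with the values as deposited (Adgre1 -0.57, limma adjusted p = 0.119; Timd4 -0.71, 0.123). With the actin covariate Vsig4 joined Adgre1 and Timd4 there (-1.17, limma adjusted p = 0.0349). Taking the replicate number as a block left the calls at 2 in null and 1 in control livers, and 0 in the other comparisons. Deviations of same-numbered arrays correlated at -0.41 to 0.49 over 18 pairs, 5 of them over 0.1. Those of arrays with different numbers correlated at -0.45 to 0.37 over 36 pairs, 7 of them over 0.1. The ranges overlap, so these values cannot decide whether the numbers pair the arrays.

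Signs turned for uncalled differences. Tunicamycin against vehicle in control livers gave Cd68 at 0.03 with centred medians and 0.05 as deposited, and Cd5l at -0.82 with the actin covariate. In null livers Cd5l was at 0.01 as deposited. Null against control with vehicle gave Cd163 at 0.00 with the actin covariate. The Csf1r interaction was -0.04 with centred medians, and with the actin covariate the interactions were 0.15 for Cd68, -0.14 for Marco, 0.16 for Vsig4 and 0.12 for Cd5l. Of 450 differences of single markers under the settings that kept all arrays, 10 turned sign, 7 lost and 4 gained a call. Of 324 with an array left out, 27 turned sign, 7 lost and 7 gained a call. Those that turned spanned -0.28 to 0.20 for Cd68 in control livers, and -0.18 to 0.65 and -0.63 to 0.10 for Cd5l in control and null livers. Between genotypes they spanned -0.71 to 0.19 for Cd5l with vehicle and -0.24 to 0.13 for the brightest Csf1r probe set with tunicamycin. The interactions that turned spanned -0.20 to 0.13 for Adgre1, -0.43 to 0.06 for Cd68, -0.20 to 0.82 for Marco, -0.57 to 0.08 for Vsig4 and -0.13 to 0.24 for Csf1r. The causes of these changes were not tested.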

Other observations

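Among the remaining cell type lists, single genes passed with tunicamycin. Of all genes, 9.23% fell and 7.59% rose in null livers, and 13.3% fell and 11.6% rose in control livers. Cd79b, a chain of the B cell receptor complex, fell by 0.77 ± 0.13 on the log2 scale in null livers (SE, limma adjusted p = 0.00227) and by 0.46 ± 0.13 in control livers (0.0239). It was 1 of 7 lymphocyte genes tested, and the other 6 did not pass. In control livers its call held in 9 of 16 other settings. Rgs5, a gene of stellate cells and pericytes, fell in null livers (-0.84 ± 0.19, limma adjusted p = 0.0106), in 13 of 16 other settings too, and 0 of the other 11 stellate genes passed. In control livers Rgs5 gave -0.38 ± 0.19, and the interaction was -0.46 ± 0.27 (limma adjusted p = 0.751). Alas2, the first enzyme of haem synthesis in red cell precursors, fell in both genotypes (-1.33 ± 0.28 in null livers, limma adjusted p = 0.00675, and -0.82 ± 0.28 in control livers, 0.0477), and in control livers 5 of 16 other settings kept the call. The other erythroid gene tested, Slc4a1, the anion exchanger of red cells, gave 0.29 ± 0.35 in null and -0.16 ± 0.35 in control livers and did not pass. In limma 0 of 8 hepatocyte genes, 0 of 2 neutrophil genes and 0 of 4 bile duct genes passed in either genotype. An unadjusted p under 0.05 was reached by 2 hepatocyte genes in null livers and by 0 of the others. Of all 14568 genes, 4356 reached it in null and 5352 in control livers. Of 13 kidney genes, 1 passed, Slc5a2 in control livers (-1.03 ± 0.29, limma adjusted p = 0.0211). In null livers Slc5a2 gave -0.80 ± 0.29 (limma adjusted p = 0.0808), and the interaction was 0.23 ± 0.41 (limma adjusted p = 0.968). The kidney list averaged 4.51 on null tunicamycin replicate 2, against -0.59 to -0.11 on the other 11 arrays.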
